A study of Homo sapiens with 4 samples.

Results

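Histone mRNAs made in S phase are the only known animal mRNAs that end without a poly(A) tail. A machinery that is only partly dedicated to them forms their 3′ ends. The genes examined here are 10 factors of that machinery or of histone gene transcription, chosen by name. They are SLBP, ERI1, LSM10, LSM11, CASP8AP2, NPAT, CPSF2, CPSF3, SYMPK and CSTF2. All 10 were found among the 20457 features listed for each library, and all 10 passed the expression minimum of the test. They were followed in HEK293 cells, a standard human embryonic kidney line, labelled wild type in the controls. One pair of samples received a negative control siRNA (siControl) and the other pair an siRNA against CNOT4 (siCNOT4, labelled as a CNOT4 knockdown), each at 10 nM for 72 h, with 2 libraries per group. CNOT4 is a ubiquitin ligase linked to the CCR4-NOT deadenylase, and the series asked how it bears on the effect of codon usage on expression. The labels number the replicates but do not say that they were separate cultures, so p values measure the spread between these libraries only.

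As background, the nascent histone transcript carries a short stem-loop that SLBP binds, and the U7 small nuclear ribonucleoprotein (snRNP) pairs with a purine-rich element just downstream. LSM10 and LSM11 take the places of 2 spliceosomal Sm proteins in the U7 ring. CASP8AP2, also called FLASH, binds LSM11 and helps to recruit a cleavage complex in which CPSF3 is the endonuclease, CPSF2 its inactive homologue, SYMPK (symplekin) the scaffold and CSTF2 an RNA-binding subunit shared with ordinary polyadenylation. NPAT is a coactivator of histone gene transcription and, with CASP8AP2, a component of the histone locus body. ERI1 is an exonuclease that binds the same stem-loop as SLBP, trims the cleaved end and takes part in histone mRNA decay. The libraries were selected for poly(A), so they report the polyadenylated mRNAs of these factors directly, but capture the tail-less histone mRNAs poorly.

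The RNA element on which the stem-loop proteins act is shown first, because it links them to their substrates. A 16-base stem-loop of the consensus form was searched in GENCODE 29 coding transcripts of the listed histone genes, and 25 of 59 genes had it. Genes without a match are not shown to lack the stem-loop, because a transcript annotated without its 3′ end could not be searched there. Several unmatched genes had short annotated transcripts, such as 312 bases for HIST1H4A and 411 for HIST1H3A. The matches had 6 spellings, the commonest in 13 genes. The examples are those of the 4 genes with the highest mean TPM (transcript abundance per length, scaled to a sum of 1000000 per library) among the 25. Capitals mark the stem-loop, a stem of 6 base pairs around a loop of 4 bases, with 5 flanking bases on each side, 5′ to 3′ in DNA letters.
HIST3H2A: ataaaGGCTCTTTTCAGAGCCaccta
HIST1H2BD: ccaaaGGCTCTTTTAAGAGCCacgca
HIST1H3H: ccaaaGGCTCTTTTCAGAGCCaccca
HIST1H2BN: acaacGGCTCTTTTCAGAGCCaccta
HIST3H2A, HIST1H3H and HIST1H2BN share one spelling of the stem-loop, and HIST1H2BD has another.

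Several promoters of the processing factors share a motif as well. RefSeq promoters (250 bases before to 50 after the start, GRCh38.p14) were matched for 9 of the 10 factors. The motif letters TTTGGCGC or TTTCGCGC, a common form of the site for the cell-cycle factors of the E2F family, were searched on both strands. Of the 9 promoters, 3 held it, against 1.18% of all 27305 promoters. The stretches are shown with the motif in capitals, for CASP8AP2 at chr6:89829705-89829764, CPSF3 at chr2:9423410-9423469 and CSTF2 at chrX:100820359-100820418, all on the plus strand.
CASP8AP2: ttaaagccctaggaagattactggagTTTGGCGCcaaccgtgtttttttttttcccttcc
CPSF3: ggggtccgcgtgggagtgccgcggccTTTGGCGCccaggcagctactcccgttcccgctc
CSTF2: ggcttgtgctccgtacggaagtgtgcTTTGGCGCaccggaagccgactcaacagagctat
The first base of the motif lay at -149, -218 and -6 from the start site, in that order. CCAAT, the other motif searched on both strands, was found in 4 of the 9 promoters and in 35.7% of all promoters. These matches are descriptions of the letters only.

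TPM tables hold no read totals, but the values stepped by what 1 read is worth, and whole reads were recovered for 99.9% of the features above 0. The recovered totals ran from 25578673 to 28775408 reads per library. Each is a lower limit, because the smallest whole numbers that explain a gene's values were taken. CNOT4, the targeted gene, had a TPM of 6.43 and 4.73 in siControl replicates 1 and 2 and of 3.38 and 3.81 in siCNOT4. It was lower in both knockdown libraries, and the log2 fold change was -0.51 with an SE of 0.26 (limma adjusted p 0.184). After quantile normalization CNOT4 was at -1.15 (limma adjusted p 0.0252). Of 6 markers of the HEK293 line, KRT8, KRT18, VIM and NEFL were at 193 to 917 TPM in every library, PAX2 at 1.1 to 1.91 and NEFM below 1 throughout. VIM fell in siCNOT4 by 1.09 on the log2 scale (limma adjusted p 0.0288). Of 8 markers of other cell types, 7 were below 1 TPM in every library and HBB was listed at 0. The exception was DES, a muscle filament gene, at 0.927 and 1.03 TPM in siControl and 3.46 and 3.54 in siCNOT4. It passed the expression minimum only through its siCNOT4 values, and its limma adjusted p was 0.027 as deposited, 0.0527 after TMM scaling and 0.0938 after quantile normalization. The 8 markers summed to 1.07 and 1.16 TPM in siControl and 3.78 and 4.24 in siCNOT4. Their part in the values of the processing factors was not tested.

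Among the 10 factors, 8 had more RNA in both siCNOT4 libraries than in either siControl library, and SLBP and LSM10 had less. In bulk RNA, a lower level in every cell and fewer cells with the RNA cannot be told apart. The largest ratios of group means were those of LSM11 (2.36), NPAT (2.21), CASP8AP2 (2.13) and CSTF2 (2.12), and the smallest those of LSM10 (0.645) and SLBP (0.799). A shift of this kind was general. Groups did not overlap, with siCNOT4 higher, in 66.4% of the 14208 features that averaged 1 TPM or more, and with siCNOT4 lower in 10.6%. In limma on log2(TPM + 1), 0 of the 10 factors were called, that is, had a Benjamini-Hochberg adjusted p under 0.05, while 7 had an unadjusted p under 0.05, as did 42.0% of all features. In the same test 12.6% of all features were called, 11.3% higher and 1.30% lower in siCNOT4. limma's voom on the recovered reads also called 0 of 10 factors, and 14.8% of all features. The median log2 fold change was 0.80 over the factors and 0.50 over all features.

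**Figure D1:**
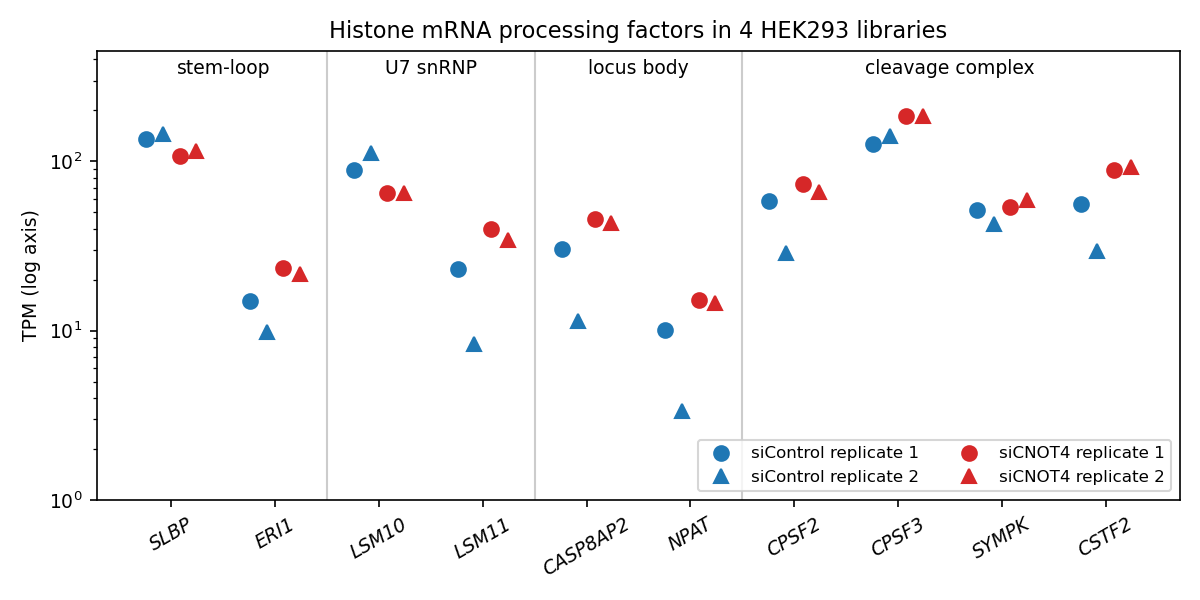
TPM of the 10 processing factors (x axis, grouped by role) on a logarithmic y axis, 1 point per library, with siControl in blue, siCNOT4 in red, circles for replicate 1 and triangles for replicate 2. The siCNOT4 points lie close together for every factor, while siControl replicate 2 lies far below replicate 1 for LSM11, CASP8AP2 and NPAT.

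The number of calls moved when a siControl library was left out, for the factors as for all features. Without siControl replicate 1, limma called all 10 factors (8 higher, 2 lower), and without siControl replicate 2 it called 8 (6 higher, 2 lower), all but CPSF2 and SYMPK. In these fits the lone siControl library is assumed to vary like the siCNOT4 pair. They called 79.6% of all features without replicate 1 (70.9% higher, 8.73% lower) and 57.5% without replicate 2 (47.2% higher, 10.3% lower). The count stayed at 0 without siCNOT4 replicate 1, where 3.35% of all features were called, and without siCNOT4 replicate 2, where 3.17% were.

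SLBP, which binds the stem-loop and stays with the mature mRNA, had 136 and 145 TPM in siControl and 108 and 115 in siCNOT4. Both knockdown libraries were below both controls, and the replicates of each group lay close together. The means were 140 ± 6.53 and 112 ± 4.96 (SD, n = 2 each), and the log2 fold change was -0.32 with an SE of 0.15 (limma adjusted p 0.154). Relative to the median of all features, SLBP was lower by a difference of -0.82. Its place among all listed features went from the 94.2 and 94.9 percentiles in siControl to 91.5 and 91.9 in siCNOT4. The 3 tested features whose centred log2(TPM + 1) values over the 4 libraries lay nearest to those of SLBP were TRMT112, ABHD14A-ACY1 and IRF2BP1, at root mean square distances of 0.003, 0.013 and 0.017.

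ERI1, the exonuclease on the same stem-loop, lay on the other side of equality, with 14.9 and 9.81 TPM in siControl and 23.5 and 21.7 in siCNOT4. The siControl libraries differed from each other 1.52-fold, and both were below the knockdown libraries. The log2 fold change was 0.85 with an SE of 0.29 (limma adjusted p 0.0862), or 0.35 relative to the median of all features. Within each library ERI1 divided by SLBP gave 0.11 and 0.0677 in siControl and 0.216 and 0.188 in siCNOT4. A single multiplier per library cannot alter this ratio of TPM, but an adjustment that differs between genes, such as one for transcript length, can.

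The genes of the pair of Lsm proteins specific to the U7 snRNP lay on opposite sides of equality. LSM10 had 88.4 and 112 TPM in siControl and 64.9 and 64.6 in siCNOT4. The knockdown libraries were nearly equal and below both controls, with means of 100 ± 17 and 64.8 ± 0.198 (SD, n = 2 each). The log2 fold change was -0.61 with an SE of 0.19 (limma adjusted p 0.07). LSM10 was the lowest of the 10 factors in fold change, and 13792 of the 14208 features had a higher one.

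LSM11, whose amino-terminal part binds CASP8AP2, had 23.1 and 8.31 TPM in siControl and 40 and 34.1 in siCNOT4. The siControl libraries differed 2.78-fold from each other, but both were below the knockdown libraries. Its log2 fold change of 1.34, with an SE of 0.45 and a limma adjusted p of 0.0831, was the highest of the 10, and 851 features had a higher one. LSM11 divided by LSM10 gave 0.261 and 0.0739 in siControl and 0.617 and 0.528 in siCNOT4, so LSM10 mRNA was more abundant per length in every library, by a smaller margin in the knockdown.

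The 2 histone locus body factors had similar profiles. CASP8AP2 had 30.4 and 11.4 TPM in siControl and 45.5 and 43.2 in siCNOT4, and the log2 fold change was 1.20 with an SE of 0.44 (limma adjusted p 0.0935). NPAT, the least abundant of the 10 in every library, had 10.1 and 3.36 TPM in siControl and 15.2 and 14.5 in siCNOT4, and the log2 fold change was 1.19 with an SE of 0.46 (limma adjusted p 0.107). For both genes siControl replicate 2 was far below replicate 1, 2.67-fold for CASP8AP2 and 3-fold for NPAT, and replicate 1 was in turn below the knockdown libraries. This gap exceeded counting error: exact Poisson intervals (95%) on the recovered NPAT reads, 775 and 293 of them, gave 9.38 to 10.8 and 2.98 to 3.76 TPM. Such intervals cover counting error only, because PCR copies of a molecule are counted too. Over all 10 factors, 293 to 5455 reads were recovered per library.

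NPAT lies head to head with ATM, the DNA damage kinase gene, with 428 bases between the RefSeq starts. Their promoter windows share 72 bases at chr11:108222817-108222888 (GRCh38.p14, plus strand), printed with a CCAAT box on the minus strand in capitals.
NPAT and ATM shared stretch: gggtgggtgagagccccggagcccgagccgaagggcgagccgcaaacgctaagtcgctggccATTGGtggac
ATM had 11.1 and 4.64 TPM in siControl and 17.4 and 17.5 in siCNOT4, and the log2 fold change was 1.16 with an SE of 0.41 (limma adjusted p 0.0873). ATM has a long transcript, of 13147 bases. With each library's trend on transcript length and GC content removed, the log2 fold change was 0.19 for ATM and 0.33 for NPAT. Whether the shared stretch took part in these values was not tested. NPAT divided by ATM gave 0.912 and 0.723 in siControl and 0.874 and 0.827 in siCNOT4, and the groups overlapped. By the RefSeq starts NPAT and ATM do not overlap each other. Where an annotation has genes that overlap, reads can be divided only with strand. The annotation and strand setting of the authors' counting are not given in the sources used here.

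Of the 4 cleavage complex subunits, CSTF2 had the largest log2 fold change. CSTF2 had 56.2 and 29.4 TPM in siControl and 89.1 and 92.3 in siCNOT4. Both knockdown libraries were above both controls, and the log2 fold change was 1.14 with an SE of 0.31 (limma adjusted p 0.0587), the smallest adjusted p of the 10. CSTF2T, its retrogene paralogue, had 37.1 and 21.8 TPM against 51.1 and 53.6 (log2 fold change 0.86, limma adjusted p 0.0816). CSTF2 divided by CSTF2T gave 1.51 and 1.35 in siControl and 1.74 and 1.72 in siCNOT4. Reads shared by such close paralogues may be divided between them, so both values are uncertain.

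CPSF3, the endonuclease, had 127 and 141 TPM in siControl and 185 and 186 in siCNOT4, and the log2 fold change was 0.46 with an SE of 0.15 (limma adjusted p 0.0743). That is -0.04 relative to the median of all features, so its difference was about that of the typical gene. CPSF2, the inactive homologue, had 58.2 and 28.7 TPM in siControl and 73.2 and 65.6 in siCNOT4, and the log2 fold change was 0.75 with an SE of 0.34 (limma adjusted p 0.14). CPSF2 divided by CPSF3 gave 0.457 and 0.203 in siControl and 0.395 and 0.354 in siCNOT4. The knockdown ratios lay between the control ratios. SYMPK, the scaffold, had 51.6 and 42.5 TPM in siControl and 53.5 and 59.3 in siCNOT4. It was the factor closest to equality between the groups, at a log2 fold change of 0.26 with an SE of 0.20 (limma adjusted p 0.334).

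In order of abundance, SLBP led in siControl, with CPSF3 next at 134 ± 9.73 TPM, a gap within their spread. CPSF3 led in siCNOT4 at 185 ± 0.191 TPM, above SLBP by more than the spread of either. LSM10 was in the third place in siControl and behind CSTF2 in siCNOT4. CPSF2 and LSM10 had siCNOT4 means of 69.4 ± 5.35 and 64.8 ± 0.198 TPM, a gap within the spread of CPSF2. SYMPK, CPSF2 and CSTF2 had siControl means of 47.1 ± 6.4, 43.4 ± 20.9 and 42.8 ± 18.9 TPM, which did not differ beyond their spread. CASP8AP2, LSM11, ERI1 and NPAT filled the lower places in every library, with LSM11 and ERI1 exchanged in siControl replicate 2. Across libraries the 10 factors stood between the 46.0 and the 95.5 percentile of all listed features.

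SLBP and LSM10 stayed lower in siCNOT4 under each scaling tried. After TMM scaling (trimmed mean of M values), the log2 fold change was -0.87 for SLBP (limma adjusted p 0.0657) and -1.16 for LSM10 (limma adjusted p 0.0602), and none of the 10 was called, against 8.78% of all features. After quantile normalization SLBP fell by 0.55 (limma adjusted p 0.046) and LSM10 fell by 0.91 (limma adjusted p 0.0389). After removal of each library's trend on transcript length and GC content, SLBP fell by 0.59 (limma adjusted p 0.0257) and LSM10 fell by 0.68 (limma adjusted p 0.0215). These were the only factors called under either of the last 2 scalings, which called 15.3% and 22.8% of all features, 8.23% and 11.9% lower.

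LSM11, CASP8AP2, NPAT, CSTF2 and ERI1 kept a positive value under all 3 scalings, with no call. With the length and GC trend removed, their log2 fold changes were 0.61, 0.32, 0.33, 0.87 and 0.08. CPSF2 turned from 0.75 to -0.23 under that removal. CPSF3 turned to -0.08 under both TMM scaling and trend removal. SYMPK was negative under all 3, at -0.28, -0.13 and -0.30 for TMM, quantile normalization and trend removal. The median over the 10 factors was 0.27, 0.31 and 0.00 in the same order, and that over all features was 0.01, 0.02 and 0.00.

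**Figure D2:**
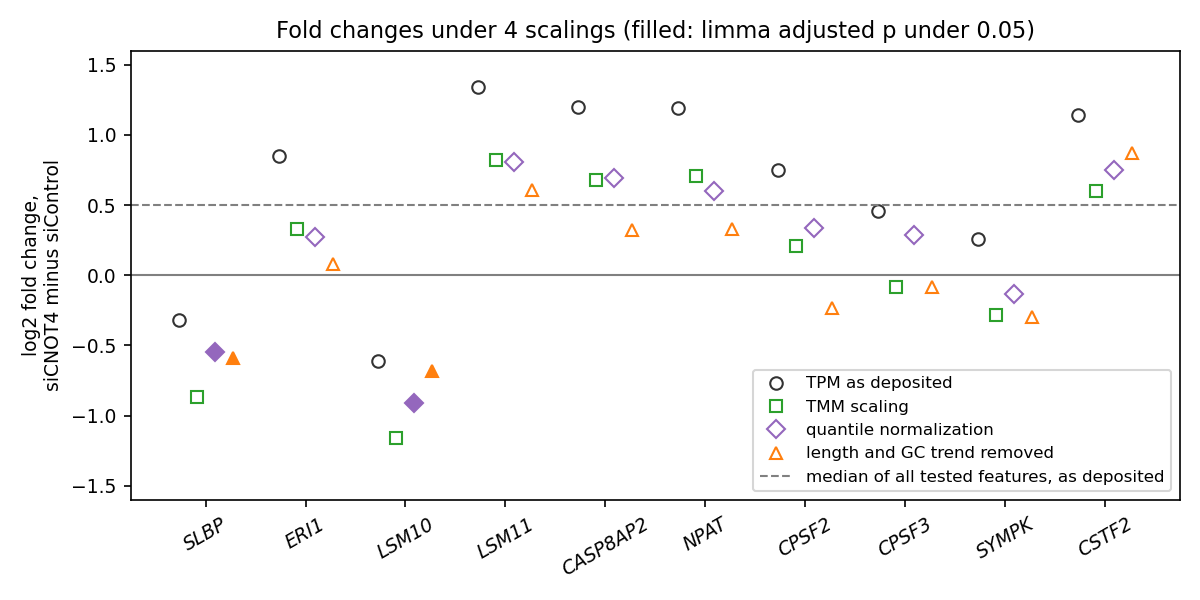
Log2 fold change of siCNOT4 over siControl (y axis) for each processing factor (x axis) for TPM as deposited and 3 other scalings, with filled symbols for a limma adjusted p under 0.05 and a dashed line at 0.50, the median of all tested features as deposited. SLBP and LSM10 lie below 0 under all 4, and their symbols alone are filled, for quantile normalization and for trend removal.

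With each library centred on the median of its tested features, the groups did not overlap for 8 of the 10 factors. ERI1, LSM11, CASP8AP2, NPAT and CSTF2 were higher in siCNOT4, and SLBP, LSM10 and SYMPK were lower. The shares of all features were 31.2% higher and 36.9% lower. CPSF2 and CPSF3 overlapped.

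Transcript length moved with these differences. Over 13744 tested features with a GENCODE 29 length, the difference between siControl replicate 1 and replicate 2 had a median of -0.03 in the shortest of 5 equal groups and 0.78 in the longest (log2 scale). The difference between siCNOT4 and siControl had medians of 0.17 and 0.79 in the same length groups. How far length took part in the values of single factors was not tested beyond the trend removal. LSM11, CASP8AP2, NPAT, CPSF2 and SYMPK, with transcripts of 6584, 6719, 6117, 13035 and 6537 bases, belong to the longest length group. SLBP (1977 bases) and LSM10 (1006 bases) belong to the shortest. CSTF2 has a transcript of 2074 bases, and its value of 1.14 compared with a median of 0.36 for its length group. SYMPK, at 0.26, was below the median of its own, and SLBP and LSM10 were below the 0.17 of theirs. Spearman's rho between length and the group difference was 0.362 over all features and 0.600 over the 10 factors. These correlations run across genes measured in the same 4 libraries, and GENCODE lengths can differ from those the authors used.

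**Figure D3:**
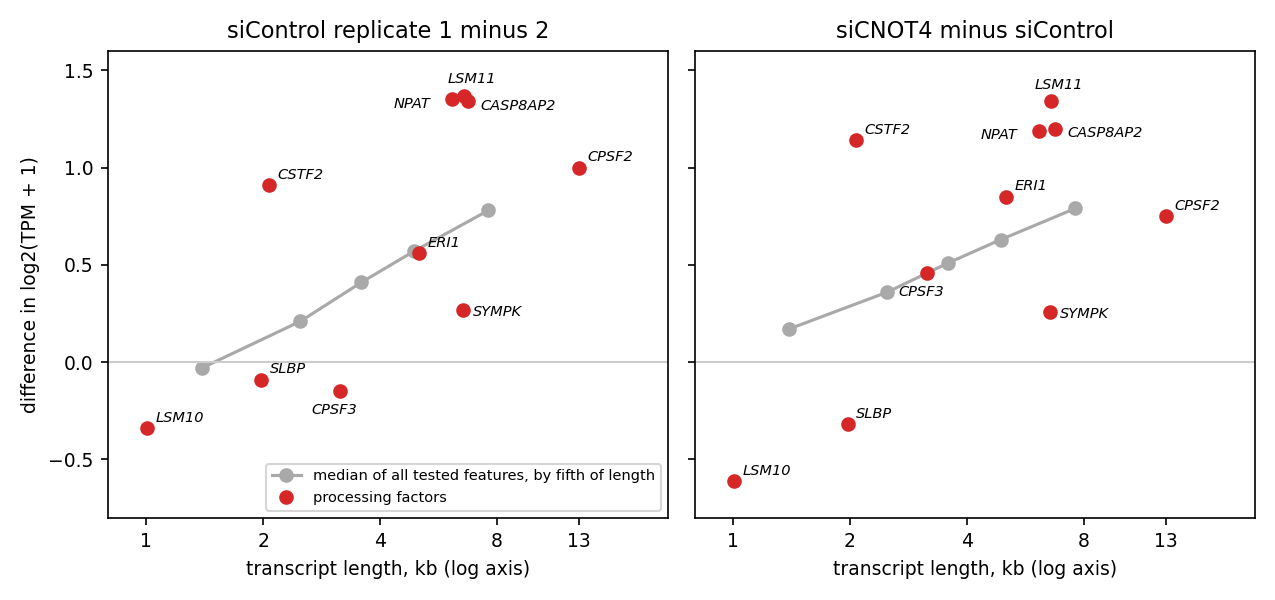
Difference in log2(TPM + 1) against transcript length (kb, logarithmic x axis) for the 10 processing factors in red and for the medians of 5 equal groups of tested features in grey, between the siControl replicates (left) and between the groups (right). LSM11, CASP8AP2 and NPAT lie above the grey line in both panels, CSTF2 is at 1.14 on the right, and SLBP and LSM10 lie below the leftmost grey point in both.

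The other proteins of the U7 ring had fold changes below that of LSM11. SNRPB, SNRPD3, SNRPE, SNRPF and SNRPG, the Sm proteins common to U7 and spliceosomal snRNPs, had log2 fold changes from -0.37 to -0.01, with 0 of 5 called and 1 at an unadjusted p under 0.05. SNRPB had 1336 and 1515 TPM in siControl and 1112 and 1168 in siCNOT4. SNRPD3 had 549 and 657 against 596 and 593, so that SNRPD3 divided by LSM10 gave 6.2 and 5.84 in the controls and 9.18 and 9.17 in the knockdown. SNRPD1 and SNRPD2, the proteins whose places LSM10 and LSM11 take, had log2 fold changes of -0.18 and -0.47 (limma adjusted p 0.389 and 0.0865). LSM10 thus lay closer to these Sm genes in fold change than to LSM11.

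Among 16 other cleavage and polyadenylation factors, 1 rose, FIP1L1, a subunit that contacts poly(A) polymerase, and 15 were not called. FIP1L1 had 58.1 and 47.8 TPM in siControl and 95.4 and 88.6 in siCNOT4 (log2 fold change 0.79, limma adjusted p 0.0474). The median of the list was 0.73 and 7 had an unadjusted p under 0.05. CPSF1, the largest CPSF subunit, had 52.4 and 35.3 TPM against 51.5 and 59.1 (log2 fold change 0.35), and the groups overlapped. Among 14 Integrator subunits, which form a related cleavage machine for small nuclear RNAs, 1 rose, INTS8 (log2 fold change 1.15, limma adjusted p 0.0426). The homologues of CPSF2 and CPSF3 in that complex, INTS9 and INTS11 (listed as CPSF3L), had log2 fold changes of 0.68 and 0.35 (limma adjusted p 0.131 and 0.203).

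The histone transcription and cap-linked list (10 genes) had 0 calls, 2 genes at an unadjusted p under 0.05 and a median of 0.31. Its members with the largest values were GON4L (0.92), the cap-binding subunit NCBP1 (0.63) and the H4 promoter factor HINFP (0.56). Of 18 genes for histone mRNA translation and decay, 1 rose and 1 fell. DCP2, the decapping enzyme, had 28.5 and 14.9 TPM in siControl and 52.8 and 52.9 in siCNOT4 (log2 fold change 1.31, limma adjusted p 0.0496). LSM7, a subunit of the Lsm ring that binds oligouridylated RNA, had 126 and 173 TPM against 71.2 and 67 and fell by 1.09 on the log2 scale (limma adjusted p 0.033). Of 4 genes linked to SLBP turnover, 0 were called and 2 had an unadjusted p under 0.05, with log2 fold changes of 0.68 for DCAF11 and 0.36 for CDK1. CCNF, the F-box cyclin that targets SLBP, had 27.7 and 22.3 TPM against 25.3 and 27.9, with the groups overlapping.

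SLBP, NPAT and the histone genes act in S phase, so 20 S phase genes were read beside them. CDC6, a replication licensing factor, had 110 and 89.5 TPM in siControl and 201 and 213 in siCNOT4 and rose by a log2 fold change of 1.05 (limma adjusted p 0.0268). The other 19 were not called, 5 of the 20 had an unadjusted p under 0.05, and the median was 0.24, or -0.26 relative to all features. CCNE1, the cyclin that activates CDK2 toward NPAT, had 56 and 58 TPM against 66.8 and 70. How far cell-cycle position took part in the values of SLBP and NPAT was not tested. The 90 genes of these lists had 5 calls (5.56%), 4 higher and 1 lower, against 12.6% of all features. Leaving out single libraries moved this count as it moved that of all features. Without siControl replicate 1 it was 75 (83.3%, against 79.6% of all features) and without siControl replicate 2 it was 51 (56.7%, against 57.5%). Without siCNOT4 replicate 1 or 2 it was 0, against 3.35% and 3.17%. The calls turned toward lower with the scaling, to 0 higher and 4 lower after TMM scaling, 3 and 7 after quantile normalization and 3 and 10 after trend removal. The median of all features was 0.01 after TMM scaling and 0.00 after trend removal. After TMM scaling the list median turned negative for the transcription list (-0.23), the SLBP turnover list (-0.31) and the S phase list (-0.30). After trend removal these medians were -0.07, -0.26 and -0.13, and that of the other cleavage factors was -0.01. LSM7 was called in 7 of 13 alternatives, CDC6 in 8, INTS8 and DCP2 in 5 and FIP1L1 in 3.

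The 10 factors act on the histone genes or on their transcripts. Over 61 listed histone genes, TPM summed to 320 and 314 in the controls and to 753 and 870 in the knockdown. Most of each sum came from HIST1H2BK and HIST1H1C. HIST1H2BK had 154 and 151 TPM in siControl and 337 and 400 in siCNOT4, and HIST1H1C had 67.7 and 84.1 against 143 and 159. Neither had a stem-loop match in the transcripts searched. Of the 61 genes, 29 passed the expression minimum, some of them only through their siCNOT4 values, and 17 rose and 0 fell. After TMM scaling, quantile normalization and trend removal, 12, 13 and 19 were called higher, against 4.45%, 7.11% and 10.9% of all features. All of these counts describe genes already known to be high in these libraries and test nothing, also beside the shares of all features. Of the genes whose stem-loops were printed, HIST1H2BD had 6.09 and 4.82 TPM in siControl and 31.6 and 35.6 in siCNOT4 (log2 fold change 2.43, limma adjusted p 0.0227). HIST1H3H had 8.32 and 7.19 against 21.2 and 32.8 (1.65, limma adjusted p 0.0336). HIST1H2BN had 10.3 and 4.54 against 19.5 and 23 (1.49, limma adjusted p 0.0561), and HIST3H2A had 27.8 and 23.7 against 31.9 and 31.7 (0.30, limma adjusted p 0.321). The largest increases were those of HIST1H2BC (2.72), HIST1H2BJ (2.61) and HIST1H2BD. Histone genes are near-identical copies, so the division of reads among them is uncertain. The libraries do not measure tail-less histone mRNA, so a change in 3′ end formation and a change in total histone RNA cannot be told apart.

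**Figure D4:**
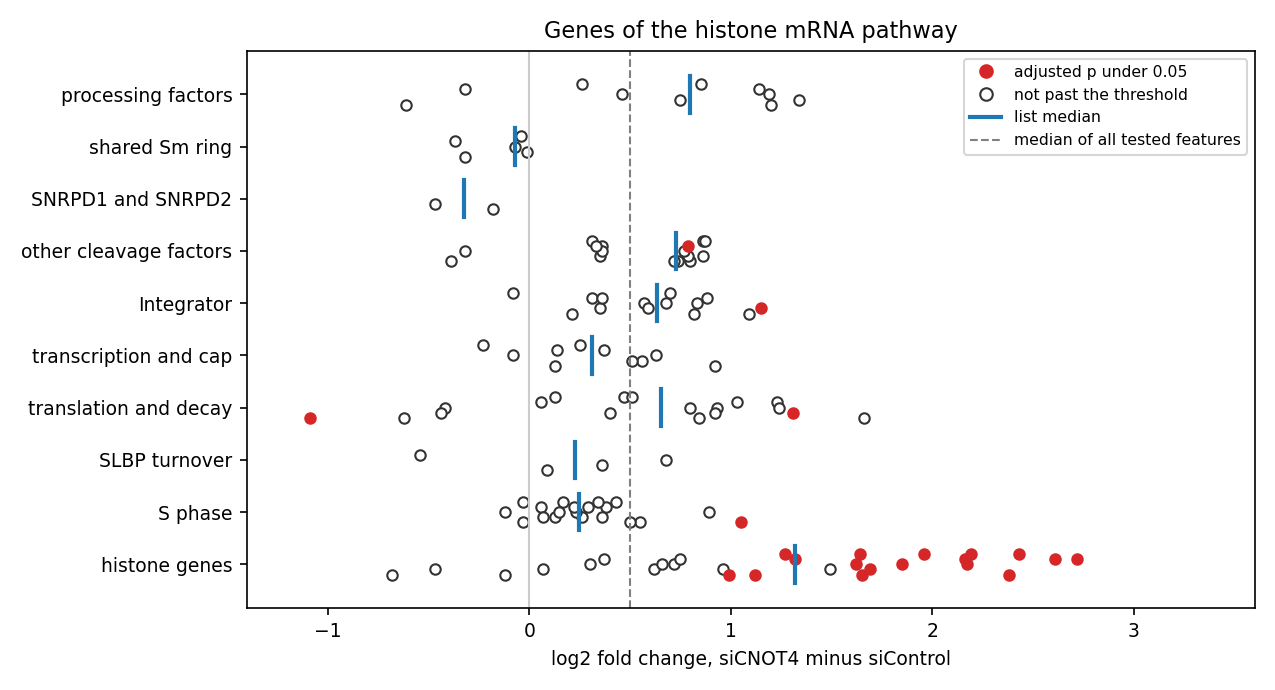
Log2 fold change of siCNOT4 over siControl (x axis) for every tested gene of the processing factors and 9 further lists (y axis), with red points for a limma adjusted p under 0.05, open points for the rest, blue bars for list medians and a dashed line at 0.50, the median of all tested features. The 10 processing factors hold 0 red points, where 12.6% of all features were called. The histone genes hold 17, a count that tests nothing, because these genes were already known to be high in these libraries.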

How the data were processed

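The authors deposited 1 table per library with TPM for 20457 gene symbols, scaled to 1000000, per the file headers. FastQC 0.11.2, STAR 2.5.3a, featureCounts and hg19 are named, without roles, per the submitters' processing notes; annotation and strand setting are not given in the sources used here. Libraries were poly(A)-selected and stranded, per the labels' protocols.

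Groups came from sample titles. log2(TPM + 1) of features averaging 1 TPM or more was compared with limma 3.58.1 (R 4.3.3; lmFit, eBayes with trend, two-sided, no covariates), and p values were adjusted by Benjamini-Hochberg over 14208 features, threshold 0.05. Fold changes on this scale understate changes of low genes. On simulated data for this comparison (14208 genes), 49 of 200 genes changed by a log2 value of 1 and 199 of 200 changed by 2 were called. In the same simulations 5 and 21 unchanged genes were called. The simulated noise was independent between genes and held no trend on length, unlike the real libraries, so these shares may not carry over. The exact permutation test of a single value cannot go below 0.333 with 2 against 2, so it was not used.

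Reads were recovered by finding whole lengths and reads that explain the TPM steps. Of 150 short low features, 131 fell within 0.03 bases of a whole length, against 9 at a random scale. A gene's reads are the smallest solution and could be a whole multiple of it.

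The factors and lists were chosen with earlier results of these data known. Named genes were the 10 factors, CNOT4, fixed partners and paralogues, up to 3 genes per list by absolute log2 fold change (called ones where any), and the 3 nearest profiles to SLBP. One gene that this rule names is not reported here. The genes with printed stem-loops (by mean TPM), HIST1H2BK, HIST1H1C, CCNE1 and CCNF were chosen after values were seen. GENCODE 29 transcripts (longest coding sequence) matched 18438 features by symbol and 965 by synonym. RefSeq promoters were those of GRCh38.p14. Alternatives were a pseudocount of 0.1, no filter, a mean TPM of at least 5, TMM scaling, quantile normalization, trend removal, limma without a trend, leaving out each library, a replicate block and, added after seeing the data, voom on recovered reads.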

Additional observations from a re-analysis of the deposited data

How the results depend on the processing

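The count of called factors, 0 as reported, was 2 after quantile normalization and 2 after the trend on length and GC was removed, and 0 to 10 when single libraries were left out. The median of the factors, 0.80 as reported, was 0.27 after TMM scaling, 0.31 after quantile normalization and 0.00 after trend removal. That of all features, 0.50 as reported, was 0.01, 0.02 and 0.00 in the same order. SYMPK turned to -0.28, -0.13, -0.30 and -0.02 under TMM scaling, quantile normalization, trend removal and voom on recovered reads, CPSF3 to -0.08 under TMM scaling and -0.08 under trend removal, and CPSF2 to -0.23 under trend removal. The other 7 factors kept their sign in all 13 alternatives. CNOT4 was at -0.95, -1.15, -1.27 and -0.90 under TMM scaling, quantile normalization, trend removal and voom, each past the threshold, and at -0.70 to -0.32 with single libraries left out. The calls in the other lists, 5 as reported (4 higher, 1 lower), numbered 1 with a pseudocount of 0.1, 1 with no filter, 1 with a mean TPM of at least 5, 4 after TMM scaling, 10 after quantile normalization, 13 after trend removal, 0 without limma's trend and 0 to 75 with single libraries left out. Lower calls made up 4 of the 4 after TMM scaling, 7 of the 10 and 10 of the 13. Over all features, the higher share of calls was 89.7% as deposited, 50.7% after TMM scaling, 46.4% after quantile normalization and 47.8% after trend removal. Of all features, 12.6% were called as reported, 1.29% with a mean TPM of at least 5 and 22.8% after trend removal. Causes of these differences were not tested.

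With the replicate block, 5 of the 10 factors were called (LSM11, CASP8AP2, NPAT, CPSF2 and CSTF2, all higher), 18 genes of the other lists and 25.7% of all features. The labels do not say that a number marks a shared culture or day. Deviations of same-numbered libraries from their group means had a correlation of 0.171 across features, and with 2 pairs this does not show pairing.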
